A study of Mus musculus with 19 samples.

Results

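Small nucleolar RNAs are short, stable RNAs of the nucleolus, the site where ribosomes are built. The 5 genes described here, Snord19, Snord22, Snora33, DQ267101 and AF357425, were taken as every probe set of the deposited table whose only gene symbol in the platform annotation was one of these names. That gave 6 of 8751 probe sets, and 5 of the 1121 genes with a symbol of their own, since Snora33 had 2 probe sets and the others 1 each. The 5 genes were picked on their measured values over the 4 groups of genotype and sleep deprivation, so their levels and differences are a description and carry no test of their own.

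The values came from forebrain of EphA4 knockout mice and wild-type littermates of the strain background labelled Mixed BL6/10, housed with light and dark phases of 12 h each. The knockout lacks EphA4, a receptor tyrosine kinase that guides axons and shapes synapses. The groups were sleep-deprived knockout mice (6 h without sleep, n = 5 arrays), undisturbed knockout controls (n = 4), sleep-deprived wild-type mice (6 h, n = 6) and undisturbed wild-type controls (n = 4). The labels do not say how the EphA4 allele was made, which sex or age the mice had, or whether the arrays of a group are separate animals. The p-values therefore reflect only the spread among these samples, which may be technical. The design text asks how the transcriptome of each genotype responds to sleep deprivation.

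Each value was the log2 expression of a probe set on a Mouse Gene 2.0 ST array, and array medians ran from 5.90 to 6.07. Of the 8751 probe sets, 1308 carried 1 symbol, and the depositors warn that the tables are incomplete. Epha4 had no probe set under its own symbol, which left the genotype labels without a check. Of 36 markers of forebrain, neurons, glia, vessels, choroid plexus and blood, 1 (Map2, a neuronal microtubule protein) was measured under its own symbol, so the labelled tissue could not be checked against its markers either. In pieces of tissue, fewer cells of a type and less RNA per cell cannot be told apart. One library, sleep-deprived wild-type array 1, had the lowest mean correlation with the other arrays (0.987), and values without it stand beside the member differences that it moved most.

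Small nucleolar RNAs work as guides. Those of the box C/D class direct methylation of ribosomal RNA, and those of the box H/ACA class direct its conversion of uridine to pseudouridine, each by pairing with the target inside a particle of core proteins. In mammals most of them are cut out of the introns of other genes, so one transcript can yield both a spliced host RNA and one or more guides. In brain, a further group comes from imprinted clusters, and many of those have no known ribosomal target.

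The reference gene table (RefSeq, GRCm38.p6) held 5 of the 5 members, and each lay within a longer host gene. Snord19, a box C/D RNA of 54 bases, lies on chromosome 14 within Gnl3, the gene of nucleostemin, a nucleolar GTPase. Snord22, also called U22, is a box C/D RNA of 126 bases on chromosome 19 within Snhg1, a host gene whose spliced RNA codes for no protein. U22 is known from frog oocytes for its need in the processing of small-subunit ribosomal RNA. Snora33, also called ACA33, is a box H/ACA RNA of 105 bases on chromosome 10 within Rps12, the gene of a small-subunit ribosomal protein. DQ267101, of 72 bases, and AF357425, of 69 bases and also called MBII-48, both lie on chromosome 12 within Rian, a long noncoding RNA of the imprinted Dlk1-Dio3 region, which is expressed from the maternal chromosome and carries a tandem array of box C/D RNAs. Each of the 4 host genes holds further guide RNAs: 2 others in Gnl3, 7 in Snhg1, 2 in Rps12 and 10 in Rian.

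The sequences shown are the promoters of the hosts of Snord19 and Snord22, because these 2 members had the highest correlation across the arrays. Both are the 250 bases before the start of the gene, 5′ to 3′ on the strand of the gene, from RefSeq on GRCm38.p6. The Gnl3 promoter is chr14:31019132-31019381 on the minus strand, and the Snhg1 promoter is chr19:8723237-8723486 on the plus strand. Capitals mark matches on either strand to 1 of 4 short motifs.
Gnl3: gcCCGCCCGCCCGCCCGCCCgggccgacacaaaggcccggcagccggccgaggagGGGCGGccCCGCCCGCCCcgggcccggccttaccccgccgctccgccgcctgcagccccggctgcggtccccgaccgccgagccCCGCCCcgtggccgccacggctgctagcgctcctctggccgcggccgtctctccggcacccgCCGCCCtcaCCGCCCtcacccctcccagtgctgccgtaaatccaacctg
Snhg1: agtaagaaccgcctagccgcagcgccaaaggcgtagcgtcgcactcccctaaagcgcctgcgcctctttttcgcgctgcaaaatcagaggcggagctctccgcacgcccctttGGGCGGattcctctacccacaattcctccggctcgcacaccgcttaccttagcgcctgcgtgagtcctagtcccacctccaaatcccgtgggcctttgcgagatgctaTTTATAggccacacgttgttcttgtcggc
The motifs searched were the TATA box TATAAA, the E-box CACGTG, the GC box GGGCGG and the CCAAT box, spelled CCAAT. Overlapping matches were each counted. The Gnl3 promoter had 10 matches to the GC box and none to the others, at a GC content of 81.6%. The Snhg1 promoter had 1 match to the GC box and 1 to the TATA box, at a GC content of 59.6%. Of 32851 promoters of this length, 32.7% held the GC box, 12.4% the TATA box, 33.8% the CCAAT box and 6.02% the E-box. The promoters of Rps12 and Rian held no match to any of the 4. A match is a run of letters only, and says nothing of a factor's binding.

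The 6 probe sets read at very different brightness, which also reflects their own probes, so levels are compared only within a probe set. On the log2 scale, the mean level over the 19 arrays was 5.91 for Snord19, 12.24 for Snord22, 6.42 and 13.34 for the Snora33 probe sets 17239751 and 17239753, 7.30 for DQ267101 and 12.50 for AF357425. Their spread between arrays of one group (pooled SD, log2) was 0.268 for Snord19, 0.131 for Snord22, 0.175 and 0.0955 for the same 2 Snora33 probe sets, 0.139 for DQ267101 and 0.0774 for AF357425. The median probe set of the table had a spread of 0.165. Spread depended on brightness, with a median of 0.187 among probe sets of below-median level and 0.147 among those above it. Snord19, at the 48.9 percentile of level, varied more than the dimmer probe sets' median. AF357425, at the 99.2 percentile, varied less than the brighter ones' median, and so did Snord22, DQ267101 and Snora33 probe set 17239753. Snora33 probe set 17239751, also of above-median level, varied more than it.

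**Figure D1:**
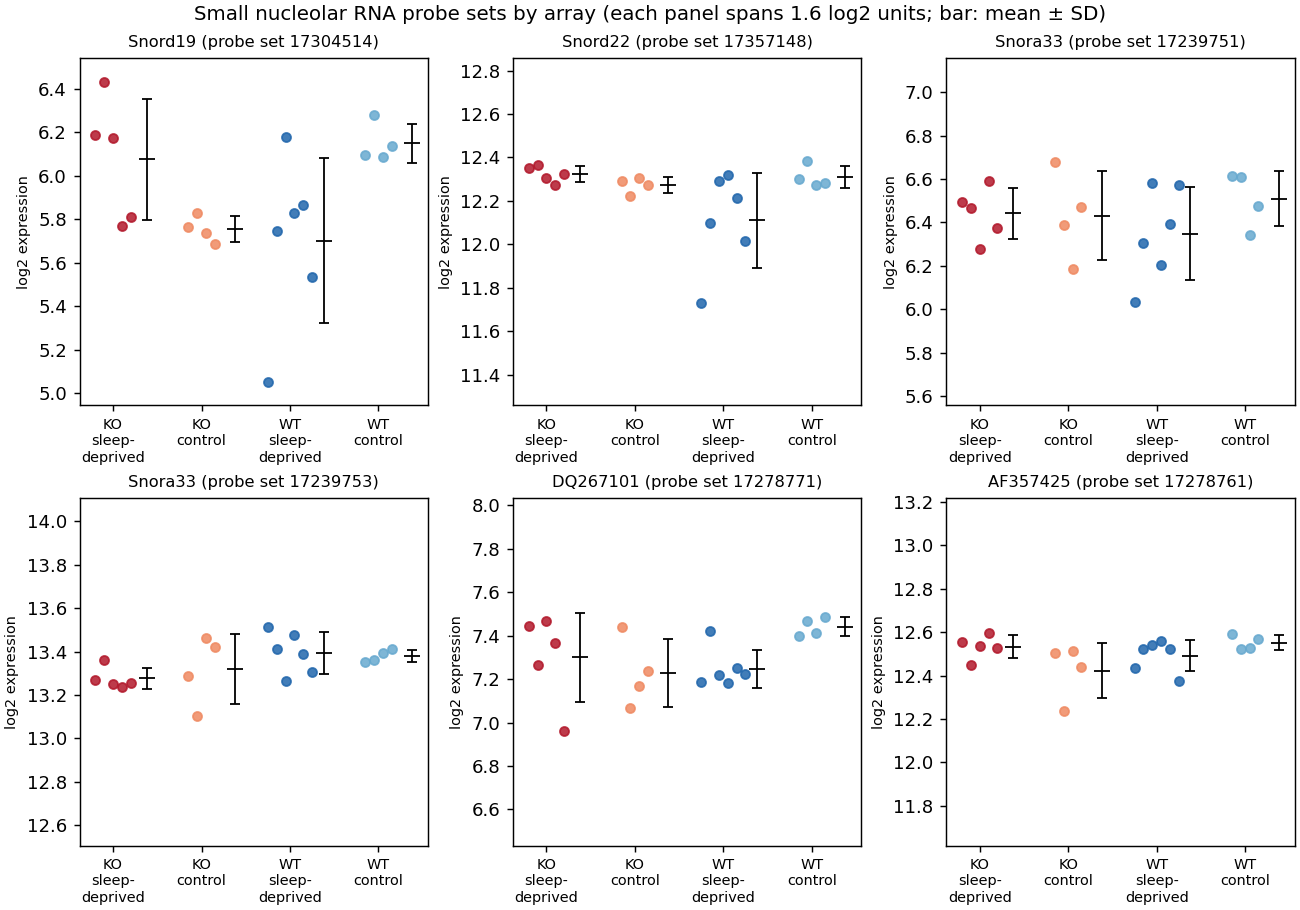
Log2 expression of each of the 6 probe sets (1 panel each) on every array, with groups along the horizontal axis and a black bar for the mean ± SD of each group. Snord19 knockout controls sit between 5.69 and 5.83, below all 4 wild-type controls, and array 1 of the sleep-deprived wild-type mice is the lowest point for both Snord19 and Snord22.

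Snord19 had the widest differences of the 6, and was also the dimmest and the most variable of them. Its mean log2 level of 5.91 lay at the 48.9 percentile of all probe sets, near the array medians. Its log2 levels were 6.19, 6.43, 6.17, 5.77 and 5.81 on the sleep-deprived knockout arrays and 5.76, 5.83, 5.74 and 5.69 on the knockout controls. In wild type, the lowest, median and highest levels after sleep deprivation were 5.05, 5.79 and 6.18, against 6.09, 6.28, 6.09 and 6.14 in controls. All 4 knockout controls lay below all 4 wild-type controls, while every other pair of groups overlapped: 5 of 6 sleep-deprived wild-type arrays lay below all wild-type controls, and 3 of 5 sleep-deprived knockout arrays lay above all knockout controls. The order of group means, from low to high, was sleep-deprived wild type (5.70 ± 0.381, SD), knockout controls (5.75 ± 0.0600), sleep-deprived knockout (6.08 ± 0.280) and wild-type controls (6.15 ± 0.0913). Every pair of neighbours in that order overlapped, and the means of the lowest pair differed by less than the SD of either group.

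In Snord19 the estimated sleep deprivation difference was positive in the knockout and negative in wild type, with overlapping groups in both genotypes. Sleep-deprived minus control was 0.32 ± 0.165 (SE, log2) in the knockout, a ratio of 1.25, and -0.45 ± 0.159 in wild type, a ratio of 0.733. Each SE here and below comes from limma's single estimate of spread shared by all 4 groups, not from the groups compared alone. Knockout minus wild type was 0.37 ± 0.149 after sleep deprivation and -0.40 ± 0.174 in controls. The difference between the 2 sleep deprivation differences, the interaction, was 0.77 ± 0.229. Averaged over genotypes the sleep deprivation difference was -0.06, and averaged over conditions the genotype difference was -0.01, so the opposite signs cancelled. Without array 1 of the sleep-deprived wild-type mice, sleep-deprived minus control in wild type was -0.32, knockout minus wild type after sleep deprivation was 0.24 and the interaction 0.64. The averaged differences were then 0.002 for sleep deprivation and -0.08 for genotype.

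Snord22, the other box C/D RNA with a ribosomal role, also had its lowest group mean in sleep-deprived wild type (12.11). Its other group means lay close together, at 12.27 in knockout controls, 12.31 in wild-type controls and 12.32 in sleep-deprived knockout. The last 2 of these stood in the reverse order to Snord19. Levels of Snord22 were 12.35, 12.36, 12.31, 12.27 and 12.33 on the sleep-deprived knockout arrays, against 12.29, 12.22, 12.31 and 12.27 on the knockout controls. In wild type they were 11.73, 12.15 and 12.32 (lowest, median and highest) after sleep deprivation, against 12.30, 12.39, 12.27 and 12.28 in controls. The sleep-deprived wild-type arrays were the spread-out group (SD 0.219, against 0.0357 to 0.0511 in the other groups), with 4 of 6 below all wild-type controls and 2 within their range. Sleep-deprived minus control was 0.05 ± 0.091 (SE, log2) in the knockout and -0.20 ± 0.088 in wild type, and the interaction was 0.25 ± 0.127. Knockout minus wild type was 0.21 ± 0.082 after sleep deprivation and -0.04 ± 0.096 in controls. The SE for controls takes in the spread of the sleep-deprived wild-type arrays, so it is wider than the controls alone would give (SD 0.0375 in knockout and 0.0511 in wild type). Without array 1 of the sleep-deprived wild-type mice, sleep-deprived minus control in wild type was -0.12 and knockout minus wild type after sleep deprivation 0.14, both nearer 0, and the interaction was 0.17. The small values moved with other arrays, to 0.03 for sleep-deprived minus control in the knockout without knockout control array 2 and to -0.01 for knockout minus wild type in controls without wild-type control array 2.

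Snora33, the box H/ACA RNA, was read by 2 probe sets that did not move together. The dimmer one, 17239751, read 6.49, 6.47, 6.28, 6.59 and 6.38 on the sleep-deprived knockout arrays and 6.68, 6.39, 6.18 and 6.47 on the knockout controls. In wild type it read 6.04, 6.35 and 6.58 (lowest, median and highest) after sleep deprivation and 6.61, 6.61, 6.34 and 6.48 in controls. All group pairs overlapped, and the group means lay within 6.35 and 6.51. Sleep-deprived minus control was 0.01 ± 0.114 (SE, log2) in the knockout and -0.16 ± 0.110 in wild type, and knockout minus wild type was 0.09 ± 0.103 after sleep deprivation and -0.08 ± 0.120 in controls. The interaction was 0.17 ± 0.158. Without array 1 of the sleep-deprived wild-type mice, sleep-deprived minus control in wild type was -0.10, knockout minus wild type after sleep deprivation 0.03 and the interaction 0.11. Leaving out 1 array at a time, sleep-deprived minus control in the knockout ran from -0.07 to 0.09, and knockout minus wild type in controls from -0.16 without knockout control array 1 to 0.003 without knockout control array 3, so no sign is read from either.

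The brighter Snora33 probe set, 17239753, read 13.27, 13.36, 13.25, 13.24 and 13.26 on the sleep-deprived knockout arrays and 13.29, 13.10, 13.46 and 13.42 on the knockout controls. In wild type it read 13.26, 13.40 and 13.51 (lowest, median and highest) after sleep deprivation and 13.35, 13.36, 13.40 and 13.41 in controls. It was the 1 member probe set with a negative interaction (-0.06 ± 0.103, SE, log2), and knockout minus wild type was -0.12 ± 0.067 after sleep deprivation and -0.06 ± 0.078 in controls. Sleep-deprived minus control was -0.04 ± 0.074 in the knockout and 0.01 ± 0.072 in wild type, and the sign of the wild-type value turned under median centring and without array 1 of the sleep-deprived wild-type mice. Leaving out knockout control array 2 turned knockout minus wild type in controls to 0.01 and brought the interaction to -0.13, and the interaction was -0.03 without array 1 of the sleep-deprived wild-type mice. Without knockout control array 3 the interaction was -0.01 and sleep-deprived minus control in the knockout 0.005. Array 1 of the sleep-deprived wild-type mice was the lowest of all 19 for probe set 17239751 and the highest of all 19 for 17239753. Across the 19 arrays the 2 Snora33 probe sets had a Pearson r of -0.49 (Spearman -0.45), and r of -0.24 over the 17 arrays left without the 2 farthest from the median.

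The 2 guides of the imprinted cluster, DQ267101 and AF357425, share their host RNA but not their pattern in full. DQ267101 read 7.44, 7.26, 7.47, 7.37 and 6.96 on the sleep-deprived knockout arrays and 7.44, 7.07, 7.17 and 7.24 on the knockout controls. In wild type it read 7.18, 7.22 and 7.42 (lowest, median and highest) after sleep deprivation and 7.40, 7.47, 7.41 and 7.49 in controls. The wild-type controls were the high and narrow group: 5 of 6 sleep-deprived wild-type arrays and 3 of 4 knockout controls lay below all of them. Sleep-deprived minus control was 0.07 ± 0.095 (SE, log2) in the knockout and -0.20 ± 0.092 in wild type, and the interaction was 0.27 ± 0.132. Knockout minus wild type was 0.05 ± 0.086 after sleep deprivation and -0.21 ± 0.10 in controls. The 2 small values rested on single arrays: sleep-deprived minus control in the knockout was 0.02 without knockout control array 2 and 0.16 without array 5 of the sleep-deprived knockout mice, and knockout minus wild type after sleep deprivation was 0.01 without array 3 and 0.14 without array 5 of the sleep-deprived knockout mice. Knockout control array 2 and sleep-deprived knockout array 5 were the 2 arrays of lowest weight by limma's array weights (0.573 and 0.559).

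AF357425 was the steadiest member. It read 12.55, 12.45, 12.54, 12.60 and 12.53 on the sleep-deprived knockout arrays and 12.50, 12.24, 12.51 and 12.44 on the knockout controls. In wild type it read 12.37, 12.52 and 12.56 (lowest, median and highest) after sleep deprivation and 12.59, 12.52, 12.53 and 12.57 in controls. All 4 knockout controls lay below all 4 wild-type controls, by a narrow margin, and every other pair of groups overlapped. Knockout minus wild type was -0.13 ± 0.070 (SE, log2) in controls, and -0.07 without knockout control array 2, the lowest of the 19. After sleep deprivation it was 0.04 ± 0.060, sleep-deprived minus control was 0.11 ± 0.067 in the knockout and -0.06 ± 0.064 in wild type, and the interaction was 0.17 ± 0.092. Without knockout control array 2, sleep-deprived minus control in the knockout was 0.05 and the interaction 0.11. Without array 6 of the sleep-deprived wild-type mice, sleep-deprived minus control in wild type was -0.04 and knockout minus wild type after sleep deprivation 0.02.

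None of these differences was called. Over all 8751 probe sets, limma's moderated test with Benjamini-Hochberg adjustment called 0 of 6 member probe sets at an adjusted p under 0.05 in each of the 7 comparisons. The share called among all probe sets was 0.263% for sleep deprivation in the knockout, 0% in wild type, 1.68% for genotype after sleep deprivation, 0% for genotype in controls, 0.0686% for the interaction, 0.263% for sleep deprivation averaged over genotypes and 0.0114% for genotype averaged over conditions. With so few calls anywhere, a count of 0 among 6 probe sets is near that background. At an unadjusted p under 0.05 the members counted 0 of 6 for sleep deprivation in the knockout (11.8% of all probe sets), 3 in wild type (Snord19, Snord22 and DQ267101, 7.80%) and 2 for genotype after sleep deprivation (Snord19 and Snord22, 15.4%). They counted 2 for genotype in controls (Snord19 and DQ267101, 5.44%), 1 for the interaction (Snord19, 11.5%) and 0 for the averaged effects of sleep deprivation (7.93%) and genotype (8.73%). Because the members were picked with these values known, nothing is read from these counts. The separation of all knockout controls below all wild-type controls, seen for Snord19 and AF357425, is a kind of separation, in either direction, that 3.68% of all probe sets had. In the other 3 pairs of groups 0 of 6 member probe sets were separated, where the share over all probe sets was 4.39% for sleep-deprived against control in the knockout, 1.63% for the same in wild type and 2.05% for knockout against wild type after sleep deprivation.

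**Figure D2:**
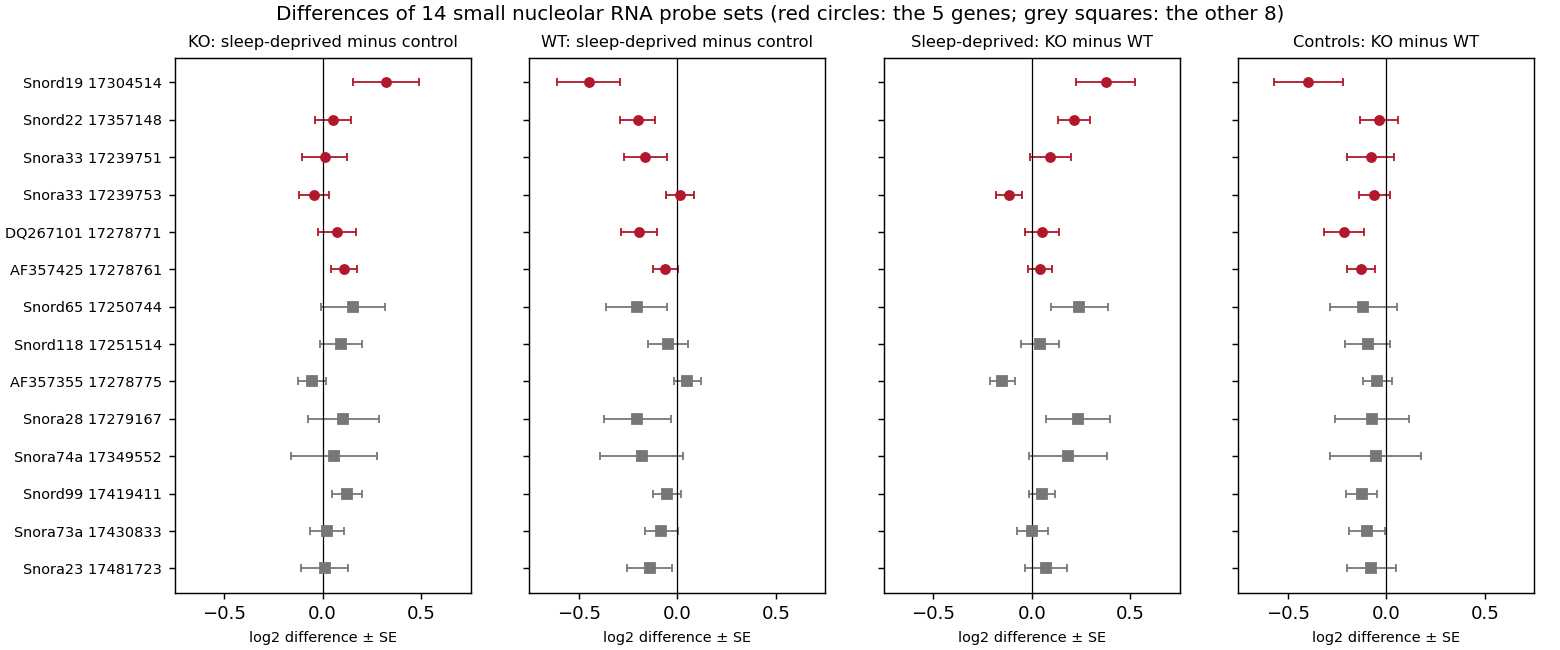
Log2 differences with their standard errors for the 6 member probe sets (red circles) and the 8 other small nucleolar RNAs (grey squares), in 4 panels for sleep-deprived minus control in each genotype and knockout minus wild type in each condition. The vertical line marks 0, no difference. Knockout minus wild type in controls is negative for 14 of 14 probe sets, against 3969 of all 8751. Sleep-deprived minus control in wild type is negative for 12 of 14, against 3873 of 8751. The 6 members were picked with their values known, so nothing is read from these counts.

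Under their own symbols the table held 8 further small nucleolar RNA genes, 1 probe set each: Snord65, Snord99, Snord118, Snora23, Snora28, Snora73a, Snora74a and AF357355, which is named only by its accession. Snord118, or U8, is needed for the processing of large-subunit ribosomal RNA in frog oocytes, and Snora73a belongs to the U17 family of RNAs that act in the cutting of the ribosomal precursor. No Cajal body guide was present under its own symbol, and 43 probe sets that list a small nucleolar RNA together with other symbols were not used. Of these 8 genes, 0 were called in any of the 7 comparisons, and 1 of 8 (AF357355, for genotype after sleep deprivation) had an unadjusted p under 0.05.

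The 8 genes leaned the same way as the members by sign, without passing the test. Knockout minus wild type in controls was negative for 6 of 6 members and 8 of 8 others, with medians of -0.10 and -0.09 on the log2 scale, against a median of 0.01 over all probe sets. Sleep-deprived minus control in wild type was negative for 5 of 6 members and 7 of 8 others (medians -0.18 and -0.11, against 0.02 over all probe sets). In the knockout it was positive for 5 of 6 and 7 of 8 (medians 0.06 and 0.07, against 0.01), and knockout minus wild type after sleep deprivation was positive for 5 of 6 and 7 of 8 (medians 0.07 and 0.06, against 0.01). Over all probe sets, 54.6% were positive for genotype in controls, 55.7% for sleep deprivation in wild type, 53.4% for it in the knockout and 52.7% for genotype after sleep deprivation. These comparisons share their control and sleep-deprived arrays, so their signs are not separate observations. Nor are the 14 probe sets, which were read on the same arrays. The 6 members were also picked with their values known, so nothing is read from counts that include them. The count of 14 of 14 negative for genotype in controls also held under quantile normalization and median centring, and was 13 or 14 of 14 when single arrays were left out and 13 without the 3 arrays of lowest weight. For knockout minus wild type after sleep deprivation, 12 of 14 were positive, against 10 under quantile normalization, 11 under median centring, 10 without array 1 of the sleep-deprived wild-type mice and 9 without the 3 arrays of lowest weight. For sleep-deprived minus control in the knockout, 12 of 14 were positive, against 10 under quantile normalization, 10 without the 3 arrays of lowest weight and 10 to 12 when single arrays were left out. For sleep-deprived minus control in wild type, 12 or 13 of 14 were negative in each of these settings. All of these counts of 14 include the 6 picked members, so nothing is read from how steady they were. The 8 others lay between the 80.3 and 99.2 percentiles of level, and the shares over all probe sets were not matched for level.

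Among the 8, the 3 with the smallest interaction p were named. Snord99 had an interaction of 0.18 ± 0.103 (SE, log2; limma adjusted p = 0.514), with mean levels of 12.39 after sleep deprivation and 12.27 in controls in the knockout, and 12.34 and 12.39 in wild type. Snord65 had an interaction of 0.36 ± 0.224 (limma adjusted p = 0.551), which was 0.20 without array 1 of the sleep-deprived wild-type mice, at 8.28 its lowest array. Snora28 had an interaction of 0.31 ± 0.247 (limma adjusted p = 0.646). AF357355, a further guide of the Rian host named here after its values were seen, went the other way, with knockout minus wild type after sleep deprivation at -0.15 ± 0.064 (limma adjusted p = 0.267) and an interaction of -0.10 ± 0.098.

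Snord19 and Snord22 lie on different chromosomes in different hosts, and had the highest correlation of any pair of member probe sets. Pearson's r over the 19 arrays was 0.82 (Spearman 0.66), and 0.82 for deviations from the 4 group means. It was 0.63 over the 17 arrays left without the 2 farthest from the Snord19 median, and 0.65 without array 1 of the sleep-deprived wild-type mice alone, where both RNAs were at their lowest. Points on one array share its RNA, labelling and normalization, so these r values are given as a description. DQ267101 and AF357425, from 1 host, had r = 0.49 (Spearman 0.36), 0.37 within groups and 0.62 without 2 arrays. AF357355, from the same host, had r of 0.03 with DQ267101 and 0.07 with AF357425.

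**Figure D3:**
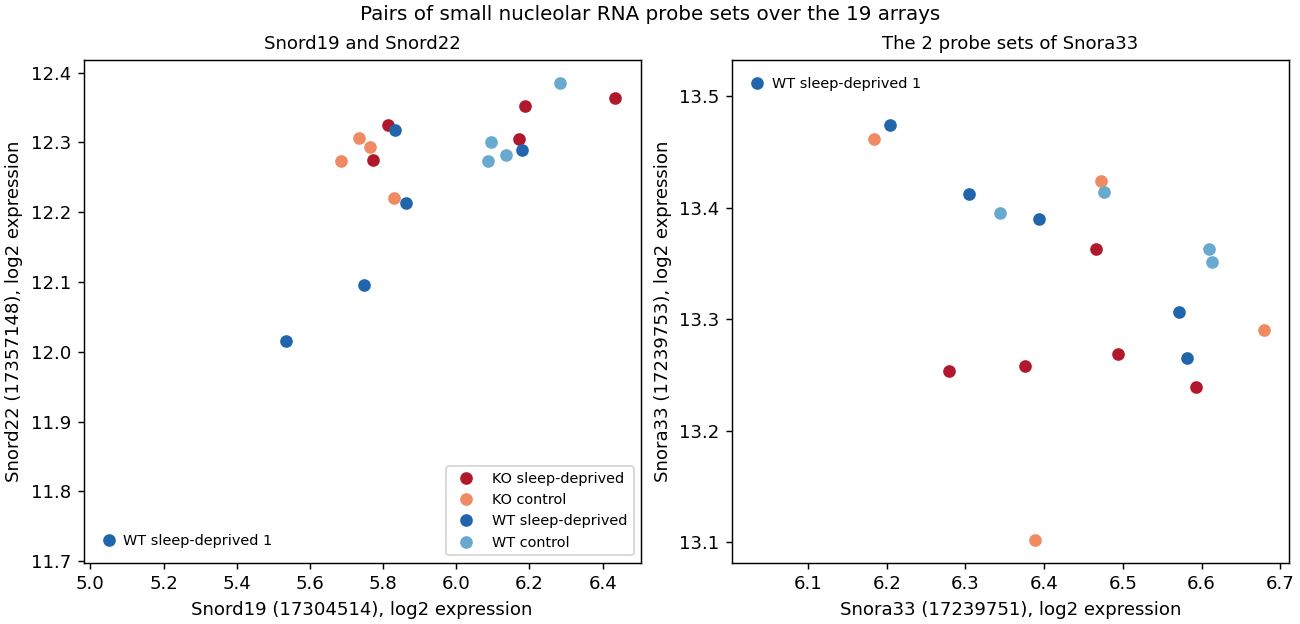
Log2 expression of 2 probe sets against each other on the 19 arrays, coloured by group, for Snord19 with Snord22 (left) and the 2 Snora33 probe sets (right). Snord19 and Snord22 vary together (r = 0.82) with array 1 of the sleep-deprived wild-type mice at the low end, while the Snora33 probe sets slope the other way (r = -0.49).

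Of the 1120 other genes with a symbol of their own, those most like each member over the 19 arrays were the following. Snord19 was closest to Morf4l1-ps1, a pseudogene (r = 0.83), Snord22 (0.82) and Gm5451, a predicted gene (0.80). Snord22 was closest to Snord19 (0.82), Malat1, an abundant nuclear long noncoding RNA (0.82), and Snord65 (0.81). AF357425 was closest to Gm26504 (0.80), Snord99 (0.77) and Mrpl20, a mitochondrial ribosomal protein gene (0.69). Small nucleolar RNAs stood among the 3 nearest genes for 3 of the 6 probe sets, with Snord19 and Snord22 naming each other. They made up 13 of the 1121 genes with a symbol of their own. Snord19, Snord22 and Snord65 were each at their lowest on array 1 of the sleep-deprived wild-type mice. Without that array the r of Snord19 with Snord22 was 0.65, and the other rankings were not repeated, so nothing is read from this count. For DQ267101 the nearest were Zfp64 (0.72), Bace1, the beta-secretase (0.70), and Gpr26 (0.69). For Snora33 they were Phf10 (0.80), Gm13545 (0.77) and Rpl29 (0.73) by probe set 17239751, and Klhdc4 (0.74), Rtn3 (0.74) and Ripor3 (0.73) by probe set 17239753.

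Of the members' hosts, Rps12 alone was measured under its own symbol, on 8 probe sets, 6 of which held identical values. A probe set within an intron can also take up unspliced host RNA, which the array does not separate from the mature guide. Rps12 probe set 17239744 averaged 10.57 ± 0.058 (SD, log2) after sleep deprivation and 10.58 ± 0.119 in controls in the knockout, and 10.62 ± 0.048 and 10.65 ± 0.056 in wild type. Its interaction was 0.03, against 0.14 on the 6 identical probe sets and -0.02 on probe set 17360842, and no Rps12 probe set was called in any comparison. Its r over the 19 arrays was 0.51 with Snora33 probe set 17239753 and 0.28 with 17239751. The other Rps12 probe sets had the opposite order, with r of 0.27 and 0.38 on the 6 identical ones and 0.10 and 0.41 on 17360842, so which Snora33 probe set follows Rps12 more closely depended on the Rps12 probe set.

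A wider list of genes known to hold small nucleolar RNAs in their introns had 13 measured genes, and 0 of 13 were called in any comparison. By the brightest probe set of each gene, the interaction was positive for 10 of 13, against 49.5% of all probe sets. Sleep-deprived minus control was positive for 10 of 13 in the knockout and negative for 8 of 13 in wild type. Knockout minus wild type was negative for 9 of 13 in controls and positive for 7 of 13 after sleep deprivation. The 13 were read on the same arrays, so these signs are not separate observations. The 3 with the smallest interaction p differed in direction. Rpl32, a large-subunit ribosomal protein gene, had an interaction of -0.24 ± 0.099 (SE, log2; limma adjusted p = 0.357), Rps13, a small-subunit one, had 0.41 ± 0.183 (0.397), and Taf1d, which codes for a factor of RNA polymerase I transcription, had 0.26 ± 0.144 (0.498). After sleep deprivation, knockout minus wild type was -0.24 for Rpl32 (limma adjusted p = 0.0641) and 0.44 for Rps13 (0.067), both short of the threshold. Of 21 proteins of the guide particles and their assembly, 1 was measured: Snu13, which binds the kink-turn of box C/D RNAs, had interactions of 0.04 and 0.07 on its 2 probe sets. Fibrillarin and dyskerin, the enzymes of the 2 classes, were not among the measured symbols.

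The imprinted chromosome 12 region that yields DQ267101 and AF357425 also yields Meg3 and a large group of microRNAs from the maternal chromosome. Of 57 microRNA genes listed for it, 5 were measured under their own symbols, and of 7 long genes 1, Meg3. Mir376a was the one whose groups separated: all 4 knockout controls and all 6 sleep-deprived wild-type arrays lay below all 4 wild-type controls. Both separations rest on the same 4 wild-type controls, so they are not separate observations. Over all probe sets, 3.68% were separated in either direction between knockout and wild-type controls and 1.63% between sleep-deprived and control wild type. Mir376a was dim, with a mean log2 level of 3.88 at the 16.1 percentile of all probe sets, and the alternative without dim rows (the lowest 40%) left it out. It averaged 3.92 after sleep deprivation and 3.72 in controls in the knockout, and 3.73 and 4.23 in wild type, with an interaction of 0.69 ± 0.166 (SE, log2; limma adjusted p = 0.179). Mir409 had an interaction of 0.35 ± 0.192 (limma adjusted p = 0.495) and Mir299a 0.27 ± 0.161 (0.538). Meg3, named after its values were seen, had 0.11 ± 0.087 (limma adjusted p = 0.632). None of these 6 passed the test in any comparison. Their r with DQ267101 over the 19 arrays ran from -0.16 for Mir299a to 0.52 for Mir377 and Mir376a, and with AF357425 from -0.08 for Mir380 to 0.44 for Meg3. For deviations from the 4 group means, r with DQ267101 was 0.53 for Mir377 and 0.20 for Mir376a, and r of AF357425 with Meg3 was 0.46.

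**Figure D4:**
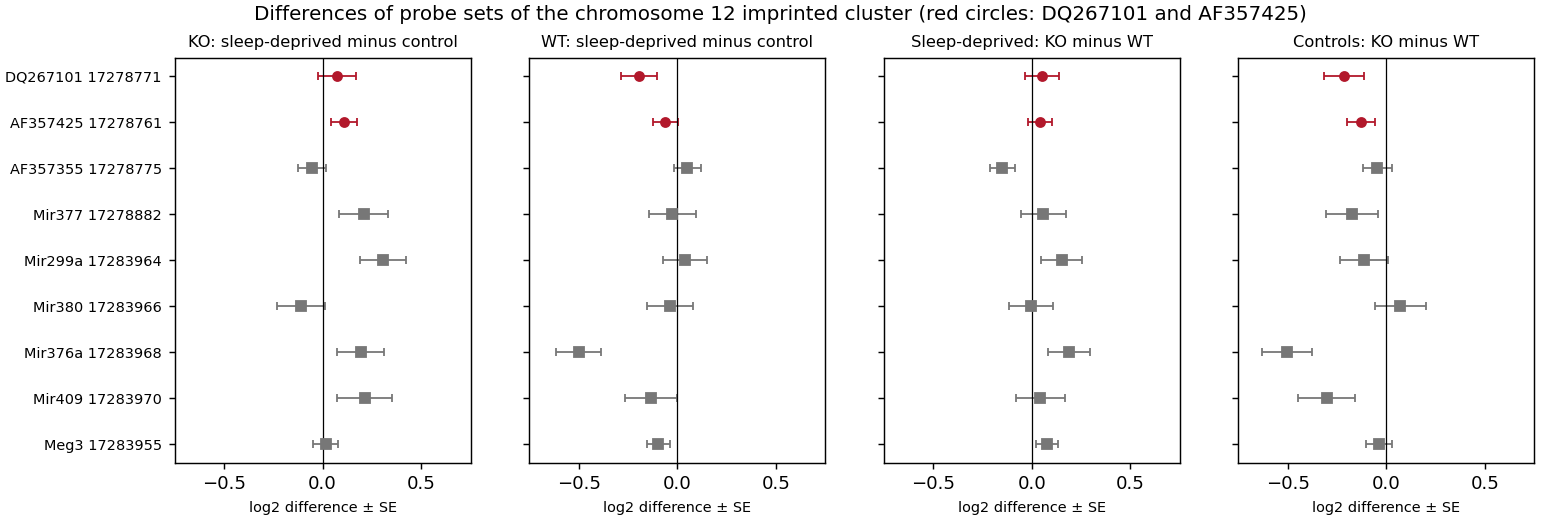
Log2 differences with their standard errors for DQ267101 and AF357425 (red circles) and, as grey squares, AF357355, Meg3 and the microRNAs of the same imprinted region, in 4 panels for sleep-deprived minus control in each genotype and knockout minus wild type in each condition. Mir376a, a dim probe set that did not pass the test, lies farthest from 0, at -0.50 for sleep-deprived minus control in wild type and -0.50 for knockout minus wild type in controls. Both of these differences use the same wild-type controls.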

How the data were processed

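The deposited log2 expression values, 1 per probe set and array, were used unchanged. Per the submitters' processing notes, RMA, oligo and limma were involved. Their versions and roles were not stated, and a genome build is not given in the sources used here. Columns of other series numbered 0. Of the rows, 346 repeated an earlier row, none of them a member's.

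The 5 genes and the gene lists were chosen with earlier results of these data known. Means of the 4 groups were fitted with limma 3.58.1 (lmFit and eBayes, R 4.3.3) on all 19 arrays with no covariates, and Benjamini-Hochberg adjustment ran over all 8751 rows at a threshold of 0.05. Symbols came from the platform annotation. Named genes were the members, the 3 other small nucleolar RNAs, 3 hosts and 3 cluster microRNAs with the smallest interaction p, and the 3 genes most like each member by Pearson's r, taking the brightest probe set per gene. The fit was tested on simulated data of the same group sizes. Alternatives covered the variance prior, array weights, rows tested, scaling, arrays in the fit, a block on the replicate number, a threshold of 0.1 and single arrays left out. The number of arrays limits the precision. Python 3.11.15 and matplotlib 3.10.9 drew the plots.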

Additional observations from a re-analysis of the deposited data

Results flagged for a closer look

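Of 120 combinations of probe set and group screened with Dixon's test, 5 had a single array far from the rest of its group, where chance flags about 1 in 20. For Snora33 probe set 17239753, array 2 of the sleep-deprived knockout mice was high at a log2 level of 13.36, with the next array at 13.27. For DQ267101, array 2 of the sleep-deprived wild-type mice was high at 7.42, with the next at 7.25. For Snora73a, array 4 of the sleep-deprived wild-type mice was high at 8.18, with the next at 7.90. Mir380 was low at 3.59 on array 1 of the sleep-deprived wild-type mice, with the next at 4.02. Rnu12, a small nuclear RNA of the minor spliceosome, was low at 8.89 on array 1 of the sleep-deprived knockout mice, with the next at 8.92.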

How the results depend on the processing

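Under 31 alternatives the count of called member probe sets was 0 in all 214 settings and comparisons, and so was that of the other small nucleolar RNAs. Of 1032 member differences recomputed, 0 moved by more than the SD of single arrays within groups. That bar is wide for a difference of group means, and many settings left out an array outside the comparison, so this count says little of steadiness. Smaller shifts did occur, such as AF357425 knockout minus wild type in controls, from -0.13 to -0.07 without knockout control array 2. Signs of values near 0 did turn. For Snora33 probe set 17239751 they did in 9 of 24 alternatives of the averaged genotype difference, 5 of 25 of sleep deprivation in the knockout and 1 of genotype in controls. For Snora33 probe set 17239753 it was 4 of 25 for sleep deprivation in wild type, 2 for genotype in controls, 1 for sleep deprivation in the knockout and 2 of 24 for averaged sleep deprivation. For Snord19 it was 7 of 24 for averaged genotype and 2 for averaged sleep deprivation, and for AF357425 2 of 24 for averaged sleep deprivation. With the replicate number as a block, 0 members were called and the Snord19 interaction was 0.74. Of 25 same-numbered pairs of arrays, 0 had a correlation of deviations over 0.1 (range -0.22 to 0.08). Differently numbered pairs were not compared, so whether the numbers mark a shared litter or day was not tested. The Snord19 and Snord22 correlation ran from 0.65 to 0.84 when each array was left out. Calls over the probe sets tested in each setting ran from 6 to 46 for sleep deprivation in the knockout (23 as reported), 0 to 3 in wild type (0), 28 to 338 for genotype after sleep deprivation (147), 0 to 41 for the interaction (6), 8 to 43 for averaged sleep deprivation (23) and 0 to 3 for averaged genotype (1), and stayed at 0 for genotype in controls. The highs of 46, 338 and 43 came from the looser threshold of 0.1. The lows of 28, 0 for the interaction and 8 came from testing only the 1308 probe sets with 1 symbol. Leaving out the 3 arrays of lowest weight was chosen after seeing the data.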
